A study of Mus musculus with 18 samples.

Results

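The livers of 5 fat-fed, methotrexate-treated mice (HFD MTX50) were compared with the livers of 4 lean mice that received no drug (LFD), to ask how far treated fat-fed livers resembled, went beyond or stayed away from lean ones. These 9 of the 18 livers profiled were chosen by their labels alone, each measured on 1 single-colour Agilent whole genome array. All were from C57BL/6 males that began a diet with 10% (LFD) or 60% (HFD) of its energy as fat at 6 weeks of age. After 10 weeks on the diet the HFD MTX50 mice, still eating it, received 5 weekly intraperitoneal injections of 50 mg/kg methotrexate, an antifolate drug, and liver was taken 1 week after the last. No vehicle injection is named for the untreated mice. The 4 HFD livers, fat-fed and untreated, are given beside the comparison. Because 2 factors differ between HFD MTX50 and LFD mice, diet and drug, a difference between them cannot be assigned to either alone.

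The liver makes fatty acids from surplus sugar. Citrate is turned into malonyl-CoA and palmitate by acetyl-CoA carboxylase and fatty acid synthase, elongases and desaturases lengthen and unsaturate the product, and acyltransferases join it to glycerol for storage in lipid droplets or export on lipoproteins. The transcription factors SREBP-1c and ChREBP, encoded by Srebf1 and Mlxipl, switch these enzymes on after carbohydrate feeding and insulin. The liver also secretes the acute phase proteins, which rise with cytokine signals such as IL-6 and IL-1, and holds metallothioneins, small zinc-binding proteins induced by metals, glucocorticoids and inflammation.

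Levels below are log2 intensities relative to the 75th percentile of the same array, so 0 is the level of that percentile, and a level compares mice for 1 gene and not 1 gene with another. Each gene was read on its brightest probe and called at a Benjamini-Hochberg adjusted p below 0.05 in limma's moderated test, fitted to all 18 arrays and adjusted over the 35739 probes kept. With a 2-fold change also required and any probe of a gene allowed, 404 of 19598 genes changed, 267 higher (1.36%) and 137 lower (0.699%) in HFD MTX50 than in LFD livers. Higher genes were 66.1% of these under the 75th percentile scaling, 48.4% under quantile normalization and 57.1% when arrays were scaled to the median of well detected probes, so the balance of directions rests on the scaling. For 16068 genes (82%) the 95% interval of the difference lay within 2-fold either way, and such genes are called held within 2-fold below. In whole liver, fewer cells of a type and less RNA per cell cannot be told apart. The 75th percentile intensity was 1484 to 1900 in LFD and 1203 to 2263 in HFD MTX50 arrays, and 83.9% to 88.4% and 84.6% to 90.6% of probes were well above background.

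The layout of the slides limits every call. The 4 LFD arrays filled slide 1 alone, HFD MTX50 mice 1 and 2 were on slide 5 with HFD mice 3 and 4, and HFD MTX50 mice 3 to 5 were on slide 6, so LFD and its slide cannot be told apart. With slide as a random block, 2 genes remained changed at 2-fold and 3 passed the adjusted p alone, Nat8f6, Gm2a and Klk1b4, all lower, of which the last 2 were named after their values were seen. No member of any list below passed in that fit, where the adjusted p was 0.20 for Fasn, 0.15 for Scd1, 0.12 for G6pc, 0.082 for Gpat3 and 0.19 for Mt2. The calls below are those of the fit without slide. In that fit Gm2a lost its call when the gene's probes were averaged (limma, adjusted p = 0.31). The count of changed genes also moved with single arrays. It was 216 without LFD mouse 2, 223 without LFD mouse 3 or LFD mouse 4, 238 without HFD MTX50 mouse 2 and 509 without HFD MTX50 mouse 4.

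Fatty acid synthesis stood furthest below the lean level. Of the 20 genes listed under fatty acid synthesis, desaturation and elongation, 15 fell and none rose, against 3.04% of all genes lower, with a median difference of -1.92 on the log2 scale against 0.053 over all probes. In 18 of the 20 every HFD MTX50 mouse lay below every LFD mouse, against 5.77% of all genes. The count was 13 with the 2 groups fitted alone and 10 without LFD mouse 2 or LFD mouse 3. It was 8 with HFD MTX50 mice 3 to 5 alone against LFD, and 8 with an unpaired t-test after Benjamini-Hochberg adjustment. The study's methods name that t-test (the methods' t-test) for measures such as weight, and no t-test for the arrays. Side by side, 2 of the 20 were lower in HFD than in LFD, where 10.4% of all genes were, and 7 were lower in HFD MTX50 than in HFD, where 6.13% were, comparisons that share arrays with this one.

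The gene for fatty acid synthase, Fasn, which builds palmitate, was at 1.71, 1.48, 1.99 and 1.66 in the LFD mice and at -1.55, -3.23, -1.47, -1.15 and -0.30 in the HFD MTX50 mice. The groups did not overlap, and the mean was 9.51-fold lower, a log2 difference of -3.25 ± 0.67 (SE, adjusted p = 0.013, exact two-sided permutation p = 0.0079, the smallest that 5 mice against 4 allow). HFD mice averaged -0.09, between the groups, with a difference of -1.80 from LFD (adjusted p = 0.065). The RefSeq promoter of Fasn (GRCm38.p6, chr11:120824498-120824797, minus strand, printed in the direction of transcription from 250 bases before the start) is shown because Fasn encodes the central enzyme of the list. Capitals mark the CCAAT boxes on either strand, the element bound by NF-Y next to SREBP sites.

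Fasn: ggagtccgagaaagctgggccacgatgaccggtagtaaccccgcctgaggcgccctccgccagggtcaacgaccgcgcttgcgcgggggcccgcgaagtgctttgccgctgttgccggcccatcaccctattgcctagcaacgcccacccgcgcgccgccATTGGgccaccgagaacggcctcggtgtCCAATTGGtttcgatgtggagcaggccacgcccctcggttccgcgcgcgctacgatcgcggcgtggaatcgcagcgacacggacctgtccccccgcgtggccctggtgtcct

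The window held 3 CCAAT matches, which began at -90, -62 and -59 from the start, where the last pair overlap. CCAAT or its complement ATTGG was found in 7 of the 11 promoters given for the genes of this list that fell, and in 37.4% of all 32851 promoters. A match is a description and not a shown site.

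Scd1, the stearoyl-CoA desaturase that makes oleate and palmitoleate, showed the largest fall of the named genes. It was at 6.67, 6.58, 6.63 and 6.18 in LFD and at -1.56, -1.41, 1.71, 2.85 and 4.68 in HFD MTX50 mice. No HFD MTX50 mouse reached an LFD mouse, but mice 1 and 2 lay far below mouse 5. The mean was 38.4-fold lower (log2 difference -5.26 ± 1.11, adjusted p = 0.014, exact permutation p = 0.016). The difference from LFD was -8.00 in mice 1 and 2 and -3.44 in mice 3 to 5, and the 2 differences differed from each other (limma, adjusted p = 0.044). Mice 1 and 2 were on slide 5 and mice 3 to 5 on slide 6, so mice and slide cannot be told apart here. HFD mice were at 4.87, 5.20, 5.91 and 4.50, all below the LFD mice, with a difference from LFD of -1.40 (interval -3.87 to 1.07, adjusted p = 0.37).

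The related desaturase Scd2 was at 2.16, 1.98, 2.15 and 1.58 in LFD and at -1.33, -2.90, -2.03, -1.13 and 0.22 in HFD MTX50 mice, with no overlap (log2 difference -3.40 ± 0.61, adjusted p = 0.0067). Scd3 differed by -4.02 (adjusted p = 0.0067) on its brightest probe and by 0.20 and 0.00 on 2 dimmer ones. The Scd probes target similar sequences, and cross-hybridization was not tested.

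Elongases Elovl6, Elovl3 and Elovl5 fell, while Elovl1, named after its values were seen, differed by 0.04 (adjusted p = 0.88). Elovl6, which lengthens palmitate to stearate, was at 2.58, 3.01, 3.25 and 3.03 in LFD and at 0.15, -1.28, -0.01, 0.71 and 0.71 in HFD MTX50 mice (log2 difference -2.91 ± 0.55, adjusted p = 0.0085). Elovl3, which makes very long saturated chains, was at 4.12, 2.46, 3.61 and 4.37 in LFD and at -1.88, 0.23, 1.33, 1.23 and 1.53 in HFD MTX50 mice (difference -3.15 ± 0.61, adjusted p = 0.0095). Neither gene overlapped between groups. Elovl5, an elongase of polyunsaturated chains, fell by 1.73 (adjusted p = 0.019), a call lost without LFD mouse 3 (adjusted p = 0.0610) or LFD mouse 2.

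Acacb, the mitochondrial acetyl-CoA carboxylase whose product restrains fat oxidation, was at 1.62, 1.64, 2.10 and 1.27 in LFD and at -1.52, -0.75, -2.28, -0.80 and 0.61 in HFD MTX50 mice (log2 difference -2.60 ± 0.54, adjusted p = 0.013). A second Acacb probe gave -2.30. The cytosolic carboxylase Acaca fell by 1.54 (adjusted p = 0.020), a call lost without LFD mouse 3 (adjusted p = 0.058), LFD mouse 2 or LFD mouse 4. Malic enzyme Me1, which supplies NADPH, fell by 2.10, acetyl-CoA synthetase Acss2 by 2.17 and liver pyruvate kinase Pklr by 1.66 (adjusted p = 0.0084, 0.013 and 0.0042). The desaturase of polyunsaturated fatty acids Fads2 fell by 1.11 (adjusted p = 0.018) and its partner Fads1 by 0.98 (adjusted p = 0.022), both lost without LFD mouse 3 (adjusted p = 0.0571 and 0.0662) or LFD mouse 2 and Fads1 also without LFD mouse 1 or HFD MTX50 mouse 2. Thrsp, the lipogenic protein Spot 14, fell by 2.75 (adjusted p = 0.041) but lost its call in 10 of 18 fits that left out 1 array (adjusted p = 0.103 without LFD mouse 3). Acaca, Me1, Acss2, Fads1 and Thrsp were chosen for naming after their values were seen. ATP citrate lyase Acly (-0.84, adjusted p = 0.068), Elovl2 (-0.95, adjusted p = 0.055) and the citrate carrier Slc25a1 (-0.58, adjusted p = 0.059) were below LFD in all 5 mice without passing the test on the brightest probe. A second, dimmer Acly probe passed, with a difference of -1.09 (adjusted p = 0.0024).

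**Figure D1:**
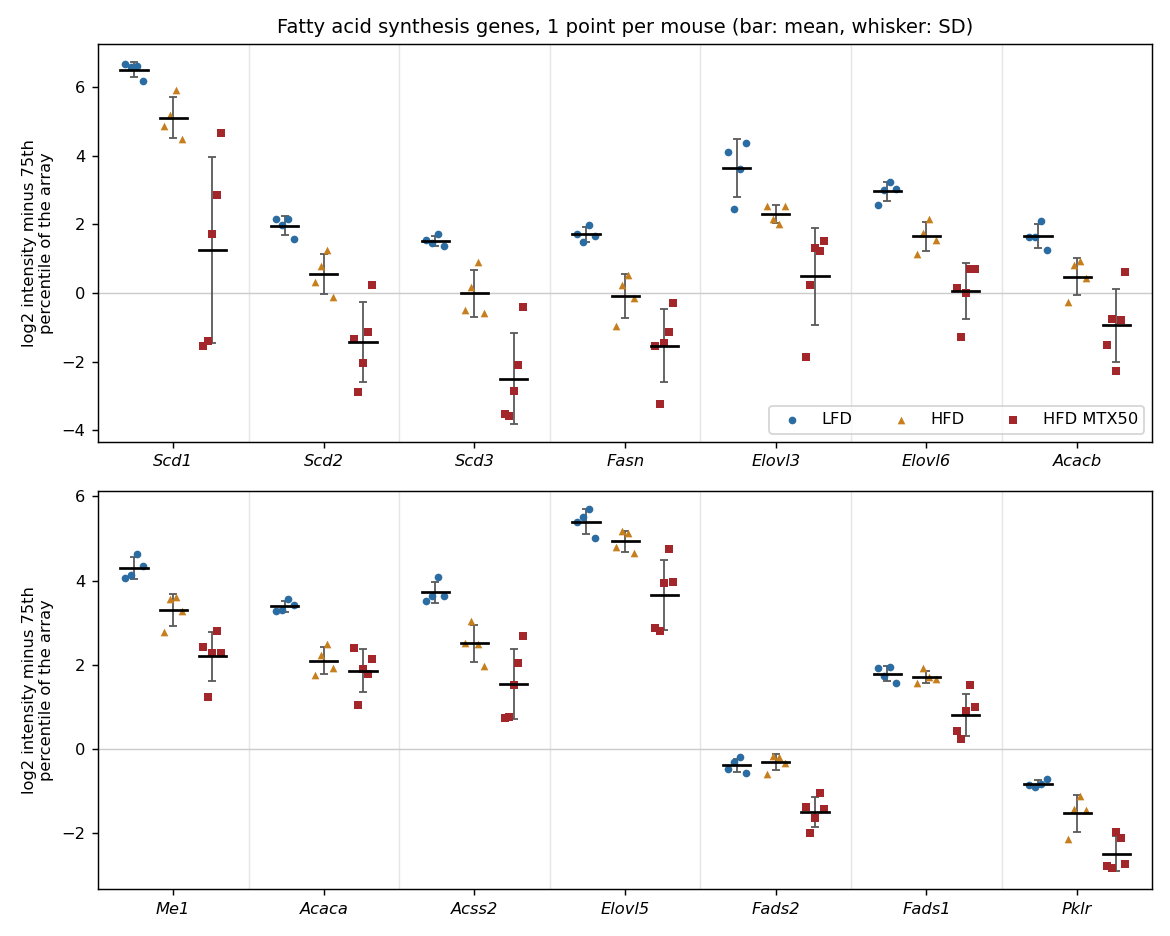
Levels of fatty acid synthesis genes in each mouse, as log2 intensity minus the array's 75th percentile, in LFD, HFD and HFD MTX50 livers (points: mice, bars: means, whiskers: SD). HFD MTX50 mice lie below every LFD mouse for Fasn, Scd1, Scd2, Elovl6, Elovl3 and Acacb, and the 5 Scd1 values run from -1.56 to 4.68.

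Of 13 lipogenic regulators 1 rose and 1 fell, and 11 were held within 2-fold, against 3.81%, 3.04% and 82% of all genes. Srebf1 was at -0.72, -0.13, -0.57 and -0.02 in LFD and at -2.36, -3.75, -1.58, -0.67 and -0.73 in HFD MTX50 mice. Treated mouse 4 alone entered the lean range, at its lower end, and the difference of -1.46 (95% interval -2.71 to -0.20) did not pass (adjusted p = 0.14). Mlxipl differed by -0.31 (interval -0.66 to 0.03, adjusted p = 0.23). Scap, the escort that moves SREBP to the Golgi, fell by 0.63 (adjusted p = 0.022), a call lost without LFD mouse 3 (adjusted p = 0.069) or LFD mouse 2. The nuclear receptor Rxra rose by 0.36 (adjusted p = 0.028) on its brightest probe. The Rxra call was lost without any 1 of the 4 LFD mice or HFD MTX50 mouse 2 (highest adjusted p = 0.079), and when its probes were averaged. A second, dimmer Rxra probe differed by 0.17 (adjusted p = 0.45).

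Of 24 genes of gluconeogenesis, glycolysis and glycogen, 10 fell and none rose, 5 of them by 2-fold or more (0.597% of all genes on the same reading), with a median difference of -0.38, and 15 were held within 2-fold. The 10 fell against 3.04% of all genes lower. The count was 6 without LFD mouse 3 or LFD mouse 4 and 5 with the 2 groups fitted alone. G6pc, glucose-6-phosphatase, the last step of glucose release, was at 3.87, 3.42, 4.14 and 4.32 in LFD and at 2.15, 1.37, 1.75, 1.33 and 2.47 in HFD MTX50 mice. Every treated mouse was lower (difference -2.12 ± 0.34, adjusted p = 0.0041). Ppp1r3c, a subunit that brings phosphatase to glycogen, was at 3.16, 2.27, 2.51 and 2.76 in LFD and at 0.44, 1.36, 1.07, 0.69 and 0.13 in HFD MTX50 mice (difference -1.93 ± 0.35, adjusted p = 0.0077), and HFD mice averaged 0.80, so treated mice were at the fat-fed level (difference from HFD -0.06, interval -0.80 to 0.69). Glycogen phosphorylase Pygl fell by 0.96 (adjusted p = 0.016). Pdk4, which blocks pyruvate oxidation, and the glycogen subunit Ppp1r3g differed by -1.57 and -2.60 (adjusted p = 0.043 and 0.033) with overlapping groups, and lost their calls in 10 and 4 of 18 fits that left out 1 array, both without LFD mouse 1 or LFD mouse 3 (adjusted p = 0.128 for Pdk4 without LFD mouse 4, 0.109 for Ppp1r3g without LFD mouse 3). Pck1, the gluconeogenic phosphoenolpyruvate carboxykinase, differed by 0.50 (interval -0.10 to 1.10).

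Of 20 male-biased liver genes measured, 5 fell and none rose, against 3.04% of all genes lower, and 9 were lower with no overlap between groups, against 5.77%. The count was 3 without LFD mouse 2, LFD mouse 3 or LFD mouse 4. The arachidonate hydroxylase Cyp4a12a, a marker of the male growth hormone pattern, was at 3.17, 3.12, 3.56 and 3.06 in LFD and at -0.50, 1.31, 0.51, 1.18 and -1.03 in HFD MTX50 mice (difference -2.94 ± 0.41, adjusted p = 0.0024), with an HFD mean of 2.03. Its near-identical neighbour Cyp4a12b fell by 2.63 (adjusted p = 0.0017), and the probes may share signal. Hsd3b5, a male-specific steroid dehydrogenase, was at 4.68, 4.46, 4.03 and 4.82 in LFD and at -3.85, -1.52, 3.45, 2.89 and 2.89 in HFD MTX50 mice. The low values were those of mice 1 and 2, and the difference of -3.73 did not pass (adjusted p = 0.10). Of 25 genes of cholesterol export and bile acid synthesis and transport, 3 fell, against 3.04% of all genes, led by Cyp8b1, the 12-alpha-hydroxylase that makes cholic acid. The count was 1 without LFD mouse 1, LFD mouse 3, LFD mouse 4 or HFD MTX50 mouse 2, and 2 without LFD mouse 2 or HFD MTX50 mouse 3. Cyp8b1 was at 1.10, 0.94, 0.97 and 0.78 in LFD and at -0.75, -0.48, -0.57, 0.18 and -1.13 in HFD MTX50 mice (difference -1.50 ± 0.31, adjusted p = 0.013), and HFD mice were at 1.05, with the lean mice. The rate-limiting Cyp7a1 differed by -0.84 (interval -2.25 to 0.58).

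The lipid droplet genes were next set beside the lean level. None of the 14 genes of the lipid droplet coat and CIDE list passed in HFD MTX50 against LFD (limma, 0 higher and 0 lower; at unadjusted p under 0.05, 1 and 1; with the methods' t-test adjusted by Benjamini-Hochberg, 0 and 0), and 9 were held within 2-fold, against 82% of all genes. Over all genes, limma called 3.81% higher and 3.04% lower, and 15.4% and 11.2% at unadjusted p under 0.05. With 14 genes, 0 called is near the adjusted shares. Against the same LFD mice 5 of the 14 were higher in HFD livers, where 18% of all genes were. In HFD MTX50 livers 4 were lower than in HFD livers, where 6.13% of all genes were. Cidea, which fuses lipid droplets and is scarce in lean liver, was at -3.38, -3.02, -1.95 and -3.47 in LFD, at -1.19, 1.13, 2.74 and 2.17 in HFD, and at -2.90, -2.66, -2.22, -0.09 and -2.86 in HFD MTX50 mice. Only treated mouse 4 left the lean range. The difference from LFD was 0.81 (interval -0.60 to 2.21), which does not bound it within 2-fold, and 0.29 without HFD MTX50 mouse 4, while the difference from HFD was -3.36 (adjusted p = 0.0098).

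Cidec, the related protein of large droplets, was at -1.50, -1.58, -1.61 and -1.83 in LFD and at -1.20, -0.96, -1.57, -1.30 and -1.25 in HFD MTX50 mice. The difference of 0.37 (interval -0.06 to 0.81) was inside 2-fold on the brightest probe, and HFD mice averaged -0.31. A second, dimmer Cidec probe differed by 2.42 (adjusted p = 0.19), outside 2-fold. Pparg, the nuclear receptor that drives Cidea and Cidec in fatty liver, was at 0.17, 0.22, 0.41 and 0.01 in LFD and at 0.37, 0.19, 0.27, 0.52 and -0.24 in HFD MTX50 mice. The groups were 0.02 apart (interval -0.26 to 0.30), with HFD mice 0.72 above LFD (adjusted p = 0.0043). Cidec, Pparg and Plin2 were chosen for naming after their values were seen.

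Fitm1, which partitions triglyceride into droplets, was at -0.50, -0.58, -0.30 and -1.04 in LFD and at -1.79, -1.70, -0.85, 0.17 and -1.37 in HFD MTX50 mice. Groups overlapped (difference -0.50, interval -1.22 to 0.21), with an HFD mean of 0.50. Mogat1, a monoacylglycerol acyltransferase induced in fatty liver, averaged -2.35 in LFD, -0.02 in HFD and -1.89 in HFD MTX50 livers (difference from LFD 0.46, interval -0.48 to 1.40). The droplet coat proteins Plin2 and Plin4 differed by -0.39 (interval -1.09 to 0.32) and 0.83 (interval 0.06 to 1.59). Cfd, the adipokine adipsin, which fat cells secrete, averaged -3.99 in LFD, 2.01 in HFD and -3.31 in HFD MTX50 livers (difference from LFD 0.68, interval -1.16 to 2.52), and mouse 4 was again the highest treated mouse at 0.19. Summed adipocyte markers moved with these genes, at 1.02 to 1.47 times the 75th percentile intensity in LFD, 5.66 to 13.1 in HFD and 1.595 to 3.44 in HFD MTX50 mice. All 8 adipocyte markers were well above background on the 9 arrays, Cidea and Cfd are among the 8, and the part of these markers in the result was not tested.

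None of 30 complement and coagulation genes passed (limma, 0 higher and 0 lower; at unadjusted p under 0.05, 1 and 1; with the methods' t-test adjusted by Benjamini-Hochberg, 0 and 0), and 27 were held within 2-fold, against 82% of all genes. Over all genes, limma called 3.81% higher and 3.04% lower, and 15.4% and 11.2% at unadjusted p under 0.05. With 30 genes, 0 called is near the adjusted shares. In the comparisons that share arrays, 9 of the 30 were lower in HFD than in LFD, where 10.4% of genes were. In HFD MTX50 livers 12 were higher than in HFD, where 4.83% of genes were. The complement protease C1ra was at 5.00, 4.94, 4.74 and 4.93 in LFD and at 4.40, 5.05, 4.53, 4.67 and 4.77 in HFD MTX50 mice, with an HFD mean of 3.82. The treated mice spanned the lean ones (difference -0.22, interval -0.58 to 0.15). C8b, of the membrane attack complex, differed by -0.12 (interval -0.70 to 0.46), with a mean of 3.22 in LFD and 2.07 in HFD livers. C1ra and C8b were chosen after their values were seen. Of 15 apolipoproteins 0 passed in either direction in limma, or in the adjusted methods' t-test, which for limma is near the shares just given. At unadjusted p under 0.05 in limma, 1 was higher and 1 lower. Held within 2-fold were 14, against 82% of all genes.

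Slc19a1, the carrier that brings folates and methotrexate into cells, differed by 0.10 (interval -0.15 to 0.34). A second, dimmer Slc19a1 probe differed by 0.67 (adjusted p = 0.078). Shmt1, which transfers a carbon from serine to folate, fell by 0.68 (adjusted p = 0.0092) on its brightest probe only. A second, dimmer Shmt1 probe differed by -0.04 (adjusted p = 0.91). Aldh1l2, a mitochondrial enzyme of folate metabolism, rose by 0.76 (adjusted p = 0.021), a call lost without LFD mouse 2, LFD mouse 3 or LFD mouse 4 (highest adjusted p = 0.0649). Of 24 p53 targets and DNA damage genes 0 passed in limma, against 3.81% of all genes higher and 3.04% lower. In the adjusted methods' t-test 0 passed. At unadjusted p under 0.05 in limma, 5 were higher and 1 lower, against 15.4% and 11.2% of all genes. Cdkn1a, the p21 cell cycle inhibitor, was at -0.82 and -0.61 in HFD MTX50 mice 1 and 2 on its brightest probe. It was at -4.49, -4.35 and -2.77 in mice 3 to 5, against -4.60 to -3.61 in LFD (difference of the groups 1.39, interval -0.17 to 2.95). A second, dimmer Cdkn1a probe differed by 0.19 between the groups (adjusted p = 0.58).

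Further genes differed from lean, several with HFD mice on the treated side. Gpat3, a glycerol-3-phosphate acyltransferase, was at -2.90, -1.94, -1.87 and -3.45 in LFD and at 0.47, 0.67, -0.34, -0.11 and -0.64 in HFD MTX50 mice. All treated mice were higher (difference 2.55 ± 0.33, adjusted p = 0.0024), HFD mice averaged -0.56, and the difference between treated and untreated fat-fed mice was 0.57 (adjusted p = 0.24). Mogat2 was at -3.39, -3.50, -3.60 and -3.56 in LFD and at -2.54, -2.84, -2.57, -2.68 and -2.38 in HFD MTX50 mice, 0.91 higher without overlap (adjusted p = 0.012), and its relative Mogat1, above, was not. Of 24 genes of triglyceride assembly and lipolysis 2 rose and 5 fell (3.81% and 3.04% of all genes), the falls reduced to 2 without LFD mouse 3 and to 3 without LFD mouse 4. Gpam, the mitochondrial acyltransferase, fell by 1.43 (adjusted p = 0.019), a call lost without LFD mouse 3 (adjusted p = 0.067) or LFD mouse 4, and Agpat2, of the next step, fell by 0.76 (adjusted p = 0.0077), with HFD means of -2.48 and 4.27 for the 2 genes.

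Pnpla3, a lipid droplet hydrolase that SREBP-1c induces, was at -1.19, -2.35, -1.23 and -3.31 in LFD and at -5.64, -6.41, -6.37, -5.89 and -5.17 in HFD MTX50 mice (difference -3.87 ± 0.88, adjusted p = 0.019; 0.061 without LFD mouse 3, where the call was lost). HFD mice averaged -5.21, with the treated ones, and a second probe gave -1.33. The brightest Pnpla3 probe was well above background in only 3 HFD MTX50 and 3 HFD mice, so its lowest values lay near background. The related Pnpla5 was not well above background in any HFD MTX50 mouse and was at least 4.66-fold lower than in LFD (adjusted p = 0.0065), a bound from the lowest signal well above background. Fabp5, a fatty acid binding protein, was at 5.25, 5.10 and 4.31 in LFD mice 2 to 4 (its spot in mouse 1 was an outlier and was dropped) and at 1.26, 0.02, 1.39, 1.47 and 2.88 in HFD MTX50 mice (difference -3.49 ± 0.64, adjusted p = 0.0085), with HFD at 0.99. Adgrf1, an adhesion receptor, fell by 3.11 (adjusted p = 0.0037) and was 2.93 lower in HFD than in LFD mice.

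Lep, leptin, which fat tissue secretes, was at -2.56, -3.13, -2.87 and -2.62 in LFD and at -1.15, -0.91, -0.79, -2.14 and -1.81 in HFD MTX50 mice. It was higher in every treated mouse (difference 1.43 ± 0.34, adjusted p = 0.024), a call lost without LFD mouse 2 (adjusted p = 0.078), LFD mouse 3, LFD mouse 4, HFD MTX50 mouse 2 or HFD MTX50 mouse 3, and HFD mice averaged -0.50. Adipoq, adiponectin, was 0.84 higher (adjusted p = 0.022), a call lost without any 1 LFD mouse or HFD MTX50 mouse 2 (highest adjusted p = 0.057), and HFD mice, at -4.50, were with the lean ones. Rad51b, a recombination gene, was at -4.02, -4.11, -3.56 and -4.20 in LFD and at -0.49, -1.31, -1.27, -1.62 and -1.67 in HFD MTX50 mice (difference 2.70 ± 0.38, adjusted p = 0.0024; second probe 1.92). Chil1, a chitinase-like protein of inflamed tissue, was not well above background in any LFD mouse and was at least 4.15-fold higher in HFD MTX50 mice (adjusted p = 0.0027). HFD mice lay between the groups for both, at -2.31 and -5.86.

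**Figure D2:**
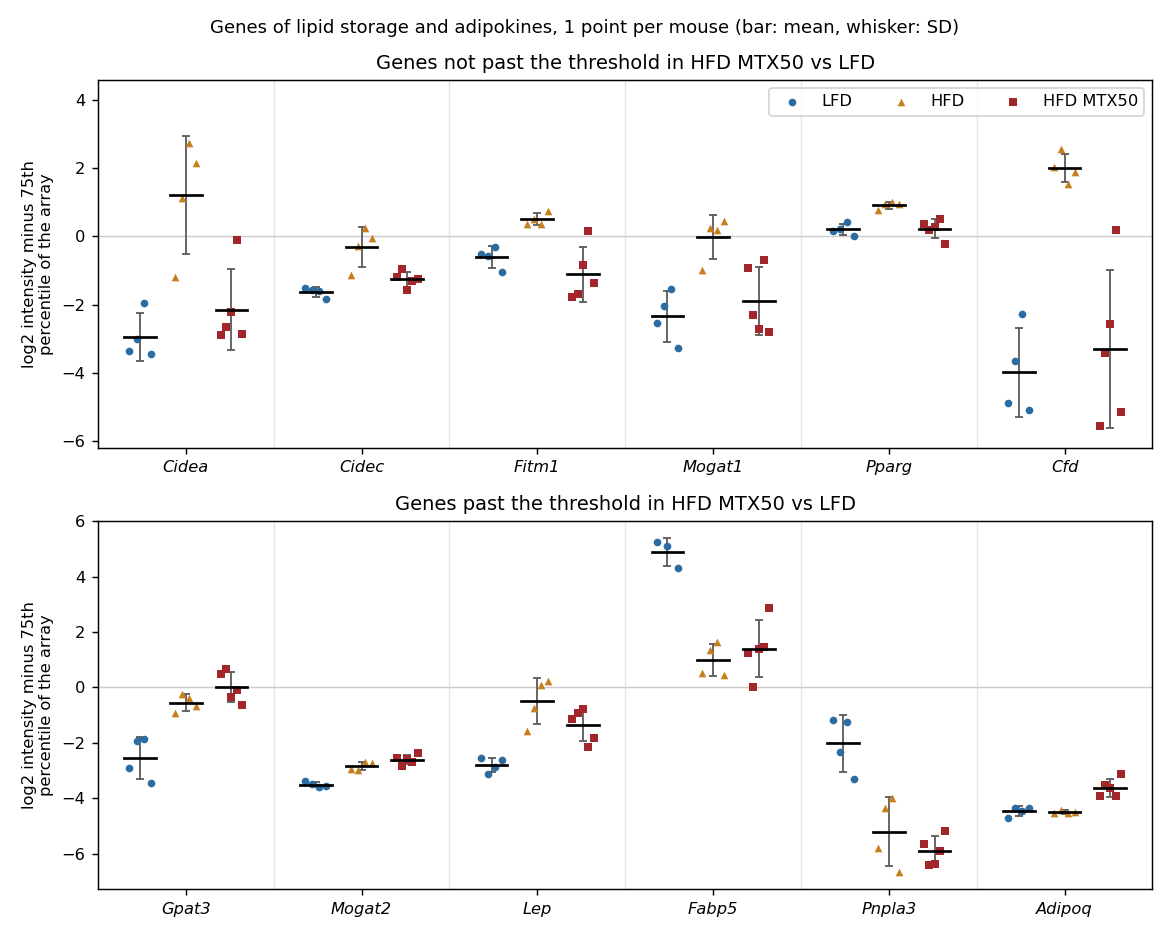
Levels in each mouse of lipid storage and adipokine genes, as log2 intensity minus the array's 75th percentile, in LFD, HFD and HFD MTX50 livers (points: mice, bars: means, whiskers: SD), split into genes that did not pass the threshold in HFD MTX50 against LFD and genes that did. Cidea lies in the lean range in all treated mice but mouse 4, whereas treated Gpat3 lies at -0.64 to 0.67, above every LFD mouse.

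Enho, which encodes the secreted peptide adropin, was at 3.77, 3.56, 3.57 and 3.58 in LFD and at 3.90, 4.28, 4.51, 4.05 and 4.31 in HFD MTX50 mice. All treated mice were higher (difference 0.59 ± 0.12, adjusted p = 0.013; second probe 1.92), and HFD mice, at 3.61, were with the lean ones. Angptl8, a hepatokine induced by feeding and insulin, fell by 1.64 (adjusted p = 0.022), a call lost without LFD mouse 2 (adjusted p = 0.077) or LFD mouse 1. Asns, asparagine synthetase, was at -2.25, -2.81, -2.61 and -2.59 in LFD and at -0.09, -1.23, -1.82, -1.99 and -0.76 in HFD MTX50 mice (difference 1.39 ± 0.28, adjusted p = 0.012), and with Chac1 (1.35, adjusted p = 0.0049) made the 2 of 21 genes of the ER stress and integrated stress response that rose, against 3.81% of all genes. Socs2, the growth hormone feedback inhibitor, rose by 1.34 (adjusted p = 0.015), a call lost without LFD mouse 4 (adjusted p = 0.055).

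Metallothioneins rose in the treated mice. Mt2 was at -0.56, -0.11, -0.67 and -0.94 in LFD and at 5.06, 6.65, 4.00, 1.56 and 7.06 in HFD MTX50 mice. Every treated mouse was above every lean one, by amounts that differed widely from mouse to mouse, and the mean was 43.3-fold higher (log2 difference 5.44 ± 1.08, adjusted p = 0.011). Mt1 was at 0.90, 1.77, 0.74 and 0.41 in LFD and at 5.78, 7.40, 5.22, 3.04 and 7.51 in HFD MTX50 mice (difference 4.83 ± 0.95, adjusted p = 0.010, 28.5-fold), with the treated mice in the same order. A second, dimmer Mt1 probe differed by 0.26 (adjusted p = 0.59). HFD mice averaged -0.09 for Mt2 and 1.33 for Mt1. The promoters of both genes (RefSeq, GRCm38.p6, plus strand, Mt1 chr8:94178839-94179138 and Mt2 chr8:94172368-94172667) are shown because the pair rose together. Capitals mark the metal response element core, TGCGCNC or TGCACNC on either strand, which MTF-1 binds.

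Mt1: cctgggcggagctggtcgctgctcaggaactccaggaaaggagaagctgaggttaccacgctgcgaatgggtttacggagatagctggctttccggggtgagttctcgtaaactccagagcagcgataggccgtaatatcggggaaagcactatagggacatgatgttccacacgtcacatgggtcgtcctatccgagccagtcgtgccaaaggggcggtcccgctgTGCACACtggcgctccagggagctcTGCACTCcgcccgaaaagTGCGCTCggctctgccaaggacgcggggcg
Mt2: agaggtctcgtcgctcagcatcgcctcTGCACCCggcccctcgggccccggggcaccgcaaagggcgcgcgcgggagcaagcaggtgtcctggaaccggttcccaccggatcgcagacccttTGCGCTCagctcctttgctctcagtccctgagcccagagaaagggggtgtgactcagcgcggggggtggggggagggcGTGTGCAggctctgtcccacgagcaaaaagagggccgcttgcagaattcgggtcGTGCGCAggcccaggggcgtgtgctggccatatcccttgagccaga

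The Mt1 window held 3 matches and the Mt2 window 4, against 25.7% of all promoters with at least 1. Of the other metal handling genes the zinc importer Slc39a4 rose by 1.15 (adjusted p = 0.018; 0.059 without LFD mouse 2, and the call was also lost without LFD mouse 4), and the manganese exporter Slc30a10 fell by 1.25 (adjusted p = 0.022), a call lost without LFD mouse 4 (adjusted p = 0.073), LFD mouse 3 or HFD MTX50 mouse 2. The other 16 of the 20 listed did not pass.

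Of 30 acute phase genes, 14 rose and none fell, against 3.81% of all genes higher, 11 of them by 2-fold or more (1.15% of all genes). The median difference was 0.88, and in 14 genes all treated mice were above all lean mice, against 6.92% of all genes. These included Lcn2 and Serpina3n, which did not pass, and left out Apcs and Il1r1, which passed with overlapping groups and are named after their values were seen. The count was 3 with the 2 groups fitted alone, 0 with the methods' t-test after adjustment (7 at its unadjusted threshold), 8 without LFD mouse 1 or LFD mouse 2, 6 without LFD mouse 3 and 7 without LFD mouse 4. Side by side, 2 of the 30 were higher and 3 lower in HFD than in LFD, where 18% and 10.4% of all genes were, and 14 were higher in HFD MTX50 than in HFD, where 4.83% were.

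Saa2, serum amyloid A, which replaces apolipoprotein A-I on HDL in the acute phase, was at 1.23, 1.16, 1.73 and 1.35 in LFD and at 5.02, 4.94, 2.88, 3.44 and 8.44 in HFD MTX50 mice. All treated mice were higher and mouse 5 was highest (difference 3.58 ± 0.77, adjusted p = 0.015, 12-fold). HFD mice averaged 3.03. Saa1 was at 1.79, 1.99, 2.38 and 2.05 in LFD and at 4.74, 4.85, 3.28, 3.56 and 8.49 in HFD MTX50 mice (difference 2.93 ± 0.71, adjusted p = 0.024; 0.065 without LFD mouse 2, and the call was lost without any 1 LFD mouse). The Saa1 and Saa2 promoters (RefSeq, GRCm38.p6, chr7:46742931-46743230 on the minus and chr7:46751583-46751882 on the plus strand) are shown because the 2 genes are near copies that both rose. Capitals mark TTNNGNAA, a loose C/EBP pattern, on either strand.

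Saa1: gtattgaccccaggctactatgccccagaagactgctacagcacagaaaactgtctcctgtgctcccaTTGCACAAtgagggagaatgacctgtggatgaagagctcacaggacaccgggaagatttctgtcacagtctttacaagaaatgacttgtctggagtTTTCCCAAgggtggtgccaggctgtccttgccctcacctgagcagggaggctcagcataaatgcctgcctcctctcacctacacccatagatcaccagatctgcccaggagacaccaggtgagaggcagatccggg
Saa2: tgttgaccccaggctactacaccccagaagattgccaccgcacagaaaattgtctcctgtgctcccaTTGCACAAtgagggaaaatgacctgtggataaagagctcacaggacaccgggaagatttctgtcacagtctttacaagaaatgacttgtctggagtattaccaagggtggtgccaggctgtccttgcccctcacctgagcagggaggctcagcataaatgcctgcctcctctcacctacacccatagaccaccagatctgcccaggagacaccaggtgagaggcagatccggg

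The windows shared 287 of 300 bases in aligned blocks and held 2 and 1 matches. The pattern was in 7 of the 12 promoters given for the 14 acute phase genes that rose and in 40.7% of all promoters. Signal shared between their probes was not tested.

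Saa3, made by macrophages and fat as well as liver, was at -2.26, -2.89, -2.79 and -2.54 in LFD and at 0.73, 0.16, -1.50, -1.14 and -0.56 in HFD MTX50 mice (difference 2.16 ± 0.34, adjusted p = 0.0036). The Saa3 difference was 3.07 in mice 1 and 2 and 1.56 in mice 3 to 5 (limma, adjusted p of the difference 0.025), sets of mice that were on different slides. Lbp, the lipopolysaccharide binding protein, was at -0.30, -0.31, -0.13 and 0.11 in LFD and at 1.46, 2.35, 0.87, 0.75 and 2.18 in HFD MTX50 mice (difference 1.68 ± 0.28, adjusted p = 0.0048). Both were without overlap. Lrg1, a leucine-rich glycoprotein induced by IL-6, rose by 1.70 (adjusted p = 0.0084), and Socs3, the feedback inhibitor of IL-6 signalling, by 1.67 (adjusted p = 0.013). Lcn2, lipocalin 2, was at 0.65 to 1.00 in LFD and at 3.54, 3.72, 1.07, 1.22 and 5.23 in HFD MTX50 mice, all above lean, and did not pass (difference 2.12, adjusted p = 0.059). The chemokine Cxcl1, which draws neutrophils, rose by 2.40 (adjusted p = 0.023), a call lost without LFD mouse 4 (adjusted p = 0.069), LFD mouse 2 or LFD mouse 3.

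**Figure D3:**
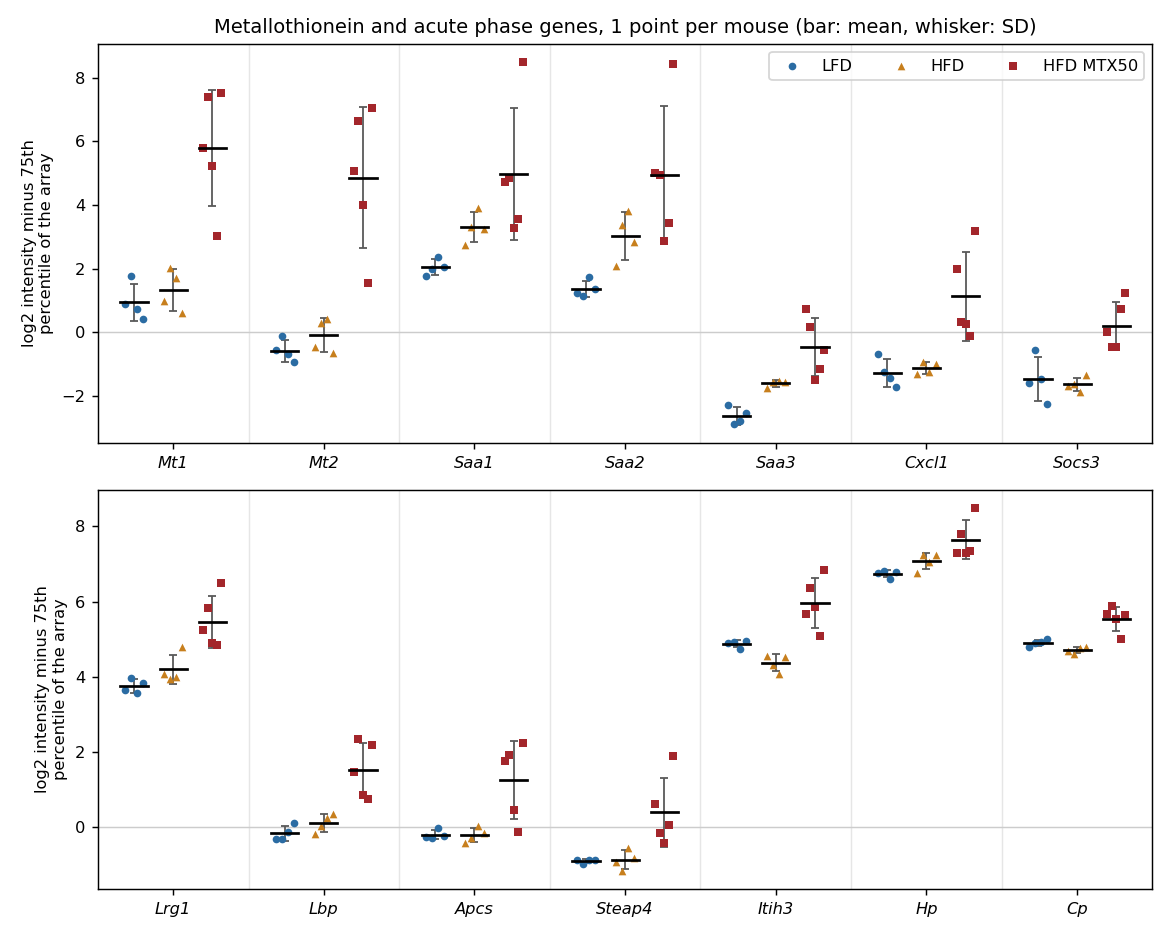
Levels of metallothionein and acute phase genes in each mouse, as log2 intensity minus the array's 75th percentile, in LFD, HFD and HFD MTX50 livers (points: mice, bars: means, whiskers: SD). Treated mice lie above all LFD mice for Mt1, Mt2, Saa1, Saa2, Saa3, Lrg1, Lbp and Socs3, with Mt2 from 1.56 to 7.06.

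Markers of other cells were checked beside these groups. All 8 hepatocyte markers were well above background on the 9 arrays. In limma 0 of 8 passed, against 3.81% of all genes higher and 3.04% lower, and in the adjusted methods' t-test 0. At unadjusted p under 0.05 in limma, 0 were higher and 1 lower, against 15.4% and 11.2% of all genes. Held within 2-fold were 7, against 82% of all genes. Summed neutrophil markers were 124 to 137 times the 75th percentile intensity in LFD and 99.7 to 187 in HFD MTX50 mice. Bright probes weigh most in this sum. The brightest, Elane and Csf3r (mean log2 level 5.945 and 5.908 over the 18 arrays), differed by -0.17 and 0.03. The median difference of the 11 markers was 1.70, and 4 were higher without overlap, against 6.92% of all genes. At unadjusted p under 0.05 in limma, 9 were higher and 0 lower, against 15.4% and 11.2% of all genes. After adjustment 3 of 11 rose, against 3.81%. These were Ngp, Mmp8 and Ltf, of which Ngp and Mmp8 were not well above background in LFD. Each of the 3 calls was lost without LFD mouse 4 (adjusted p = 0.105, 0.0822 and 0.0901), LFD mouse 2 or LFD mouse 3, Ngp and Mmp8 also without LFD mouse 1 and Ngp and Ltf also without HFD MTX50 mouse 3 or HFD MTX50 mouse 4, and Ngp lost its call in 9 of 18 such fits. The Mmp8 spot of HFD MTX50 mouse 4 was an outlier and was dropped. Summed Kupffer cell and macrophage markers were 49.6 to 69.4 in LFD and 61.6 to 84.55 in HFD MTX50 mice. In limma 0 of 13 passed, against 3.81% of all genes higher and 3.04% lower, and in the adjusted methods' t-test 0. At unadjusted p under 0.05 in limma, 3 were higher and 0 lower, against 15.4% and 11.2% of all genes. The part of these cells in the acute phase result was not tested.

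Summed erythroid markers split the treated mice. They were 37.5 to 57.1 in LFD, and 4.70, 5.72 and 6.86 in HFD MTX50 mice 1 to 3 but 82.6 and 183 in mice 4 and 5. The treated mice were thus below and above the lean range. In limma 0 of the 12 erythroid markers measured passed, against 3.81% of all genes higher and 3.04% lower, and in the adjusted methods' t-test 0. At unadjusted p under 0.05 in limma, 3 were higher and 4 lower, against 15.4% and 11.2% of all genes. Hbb-b1, beta globin, was at -6.14, -7.05 and -5.77 in mice 1 to 3 and at 0.89 and 2.03 in mice 4 and 5, against -0.29 to 0.53 in LFD. Rhd, a red cell membrane antigen, was at -9.14 and -8.68 in mice 1 and 2 and at -5.97, -1.73 and -0.53 in mice 3 to 5. The Rhd difference from LFD was -0.13 in mice 1 and 2 and 6.03 in mice 3 to 5. Rhd in mice 1 and 2 lay below the lowest signal well above background on their arrays (-6.90 and -6.40). The LFD mean also lay below that signal on the LFD arrays (-6.76 to -6.46). The -0.13 thus sets background against background, and the 6.03 starts from a background level, so its size was not measured.

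**Figure D4:**
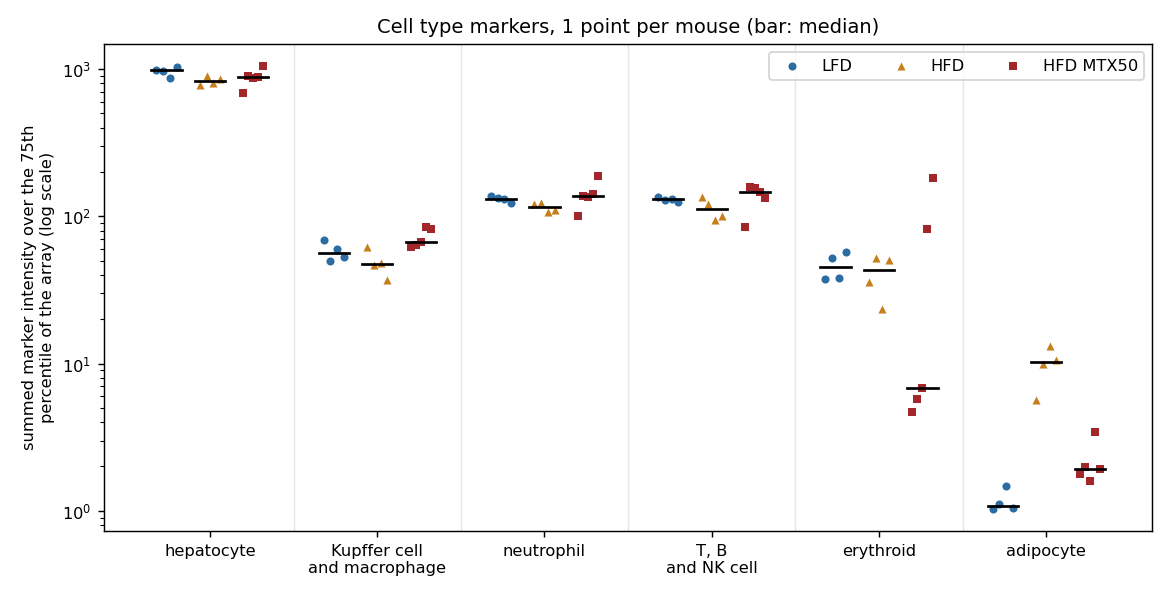
Summed intensity of each cell type's markers over the array's 75th percentile, on a log axis, in each LFD, HFD and HFD MTX50 mouse (points: mice, bars: medians). Erythroid markers of the treated mice run from 4.70 to 183, adipocyte markers are highest in HFD mice, and hepatocyte markers overlap in all 3 groups.

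**Figure D5:**
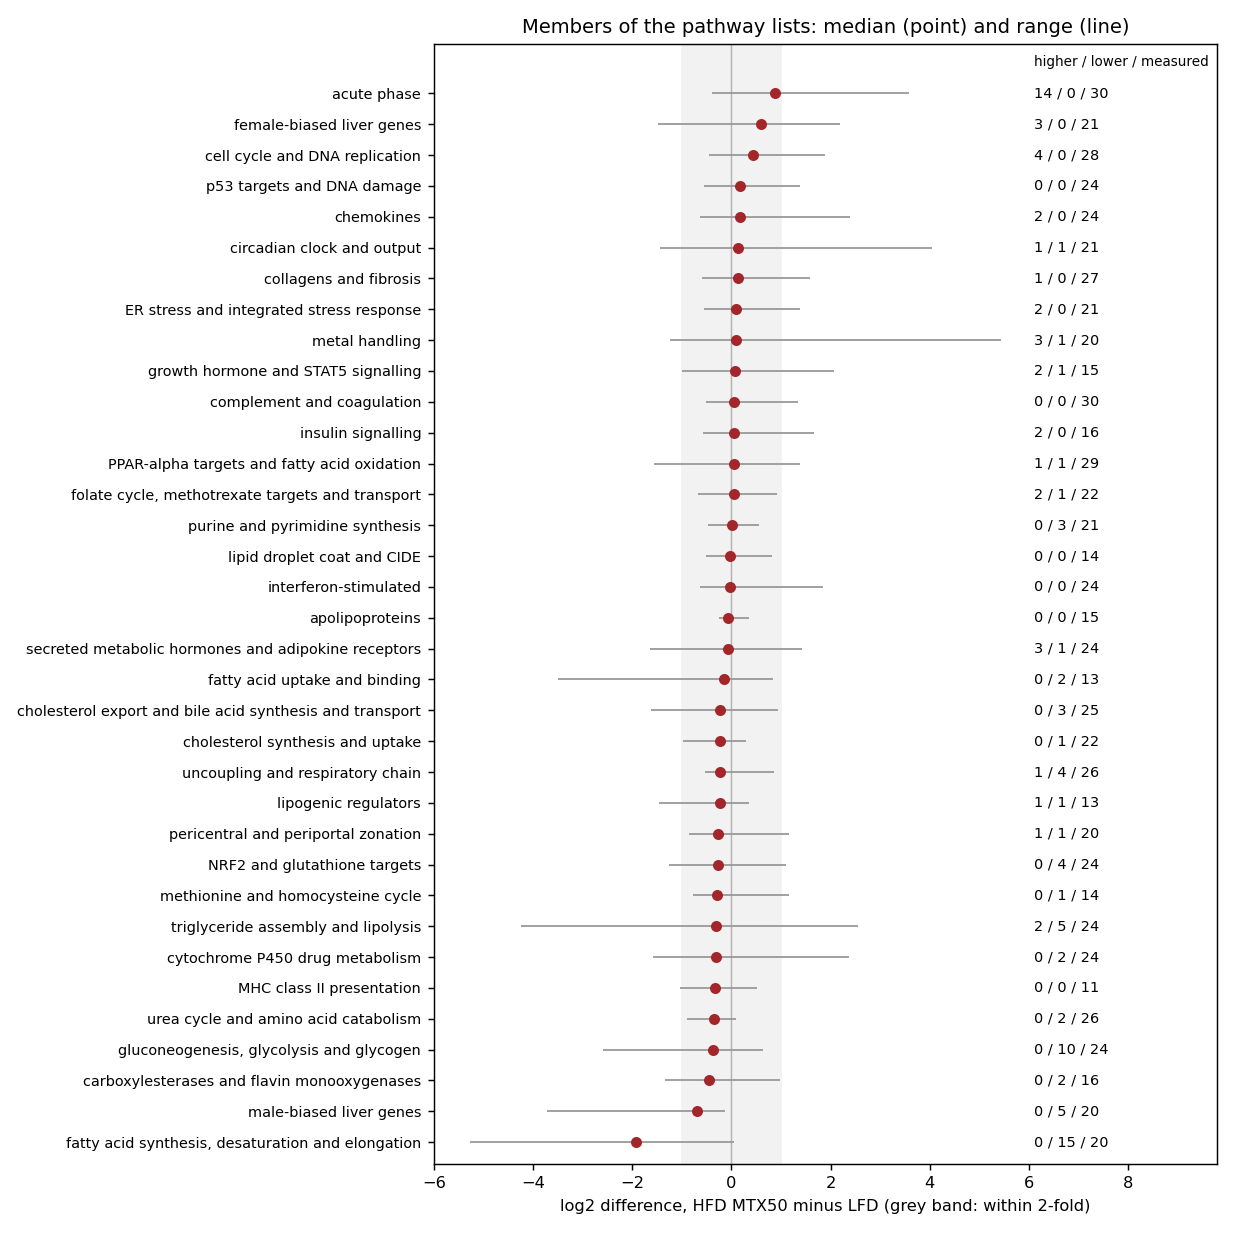
Median (point) and range (line) of the log2 difference, HFD MTX50 minus LFD, over the measured members of each pathway list, with the numbers of members higher and lower at an adjusted p below 0.05. The grey band marks differences within 2-fold, and fatty acid synthesis has the lowest median (-1.92) and the acute phase genes the highest (0.88).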

How the data were processed

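Total RNA of 18 livers, 1 mouse per array, was labelled with Cy3 and hybridized to Agilent mouse 4 x 44K arrays. The deposited intensities were made by the authors with Agilent Feature Extraction 10.7.3.1 (per the file headers and the submitters' processing notes), background-subtracted and detrended within an array but not scaled between arrays. The deposited series table held the background-subtracted signal of the same spots. The labels name Trizol with RNeasy and the Low RNA Input Linear Amplification kit, and the published methods RNeasy and the Quick Amp kit; which was used is not settled. The authors filtered for 2-fold changes in GeneSpring GX.

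Control and outlier spots were left out (no spot used was saturated), intensities were put on the log2 scale minus each array's 75th percentile, and spots of a probe were averaged, giving 39429 probes. The 35739 probes well above background on at least 4 arrays were fitted by limma 3.58.1 (R 4.3.3) with a mean per group for all 4 groups, and p-values were adjusted over these probes. Values dropped as outliers, affecting 347 kept probes, were treated as missing. Gene names came from RefSeq, by matching each probe's transcript identifier, with identifiers shared by several genes left out. The match named 28025 probes (71.1%) and 21153 genes, of which 19598 had a kept probe. Probes not well above background on every array of a group were given as a bound, from the mean, over the dim group's arrays, of the higher of the probe's own value and the lowest value well above background. Exact permutation tests were two-sided. The procedure was tested on simulated data. Alternatives covered background, scaling, filter, variance model, test, slide, replicate number and each array left out.

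Genes named were those of the article, the 12 largest rises and 12 largest falls among called genes without overlap that were well detected in at least 1 group, and at most 6 called and 3 uncalled members of each list, not all of which are given, and some genes are not reported here. Genes outside this rule are marked where named. The members and gene lists were chosen with earlier results of these data known. Array intensity has no read depth, and the number of arrays limits precision. Promoters are from RefSeq (GRCm38.p6); probe positions were not used here.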

Additional observations from a re-analysis of the deposited data

Results flagged for a closer look

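In 11 groups of values, 5.31% of those tested, 1 mouse stood apart from the others of its group by Dixon's test at 95%, which chance gives in about 1 of 20. In LFD, Acly was 5.66 in mouse 3 (others 5.23 to 5.30), Apcs was -0.01 in mouse 3 (others -0.27 to -0.24) and Enho was 3.77 in mouse 1 (others 3.56 to 3.58). Pck1 was 4.34 in LFD mouse 2 (others 4.55 to 4.58) and Slc19a1 was -0.46 in LFD mouse 4 (others -0.33 to -0.32). In HFD MTX50, Cidea was -0.09 in mouse 4 (others -2.90 to -2.22), the same mouse whose summed adipocyte markers were 3.44 (others 1.595 to 1.97). Gm2a was -1.92 in HFD MTX50 mouse 2 (others -2.26 to -2.22), and Mmp8 was -3.44 in mouse 5 (others -6.62 to -6.60). Summed T, B and NK cell markers were 84.29 in HFD MTX50 mouse 1 (others 132.3 to 158.3), and summed pancreatic acinar markers were 31.85 in LFD mouse 4 (others 38.77 to 39.89).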

How the results depend on the processing

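Calls are given here as a percent of the 19598 genes tested. The changed genes, 2.06%, were 1.05% with normexp background correction (from negative control spots, chosen after seeing the data in place of the planned fit, which collapsed the low range), 1.24% with the 2 groups fitted alone, 0.505% with the methods' t-test after Benjamini-Hochberg adjustment, 0.0102% (2 genes) with slide as a random block and 4.4% for HFD MTX50 mice 1 and 2 alone. Genes past the adjusted p, 8.27%, were 3.77%, 1.97% and 0.0153% (3 genes) with the 2 groups alone, the adjusted t-test and the slide block, 14.5% for mice 1 and 2, 3.68% for mice 3 to 5, and 13.2% and 17.7% at an unadjusted p up to 0.015 in the t-test and limma. Without 1 array they ran from 1.1% to 2.6% and from 2.68% (without LFD mouse 2) to 11.3% (without HFD MTX50 mouse 5). The cause was not tested. Genes held within 2-fold numbered 13748 to 18064. No called gene named turned direction. Of 68 called genes named, 65 lost their call with slide as a random block, 47 with the adjusted t-test, 18 with the 2 groups alone, and 27 without some 1 array; of 25 uncalled, 11 were called in at least 1 alternative. Replicate numbers did not pair the mice (correlations -0.0359, -0.0198, -0.0215 and -0.17); as a replicate block they gave 1.16% changed and 3.62% past the adjusted p. A fixed slide block could not be fitted, since LFD filled a slide of its own. A dim probe gives only a bound.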

Other observations

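Of 29 PPAR-alpha targets and fatty acid oxidation genes 1 rose, 1 fell and 16 were held within 2-fold, against 3.81%, 3.04% and 82% of all genes. Of 26 genes of uncoupling and respiratory chain 1 rose, 4 fell and 22 were held, against 3.81%, 3.04% and 82% of all genes. The mitochondrial carrier Ucp3 was at -2.53, -3.16, -2.61 and -2.83 in LFD and at -1.65, -1.85, -2.48, -1.92 and -1.73 in HFD MTX50 mice. It was higher in every treated mouse (difference 0.85, adjusted p = 0.036), with an HFD mean of -1.83, but the call was lost in 6 of 18 fits that left out 1 array, those without LFD mouse 2 (adjusted p = 0.118), LFD mouse 3, LFD mouse 4, HFD MTX50 mouse 1, HFD MTX50 mouse 2 or HFD MTX50 mouse 5. Ndufs1, a complex I subunit, fell by 0.52 (adjusted p = 0.0088). The 4 falls were 1 without LFD mouse 2, LFD mouse 3, LFD mouse 4, HFD MTX50 mouse 2 or HFD MTX50 mouse 3, and 7 without HFD MTX50 mouse 1.

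Of 27 genes of collagens and fibrosis 1 rose and 20 were held, against 3.81% and 82% of all genes. In HFD against the same LFD livers 8 were higher, where 18% of all genes were. The 1 that rose was Timp1, an inhibitor of matrix proteases, by 0.65 (adjusted p = 0.016). Without LFD mouse 2 its adjusted p was 0.059 and the call was lost. Carboxylesterases Ces2c and Ces2a, which hydrolyse esters of lipids and drugs, fell by 1.20 each (adjusted p = 0.0091 and 0.014). They were the 2 of 16 carboxylesterases and flavin monooxygenases that fell, against 3.04% of all genes, and there were 4 without HFD MTX50 mouse 3 or HFD MTX50 mouse 4. No member of this list rose.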
